A study of Ovis aries with 16 samples.

Results

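Somatostatin (SST), gastrin-releasing peptide (GRP), the substance P precursor (TAC1), the melanin-concentrating hormone precursor (PMCH) and pituitary adenylate cyclase-activating polypeptide (ADCYAP1) are neuropeptide genes read here in the hypothalamus of late-gestation fetal sheep. They were found by the gene name or alias printed on the array for each non-control probe, and the array calls SST and ADCYAP1 by the older names SRIF and PACAP. The 5 genes have 10 probes and 14 spots, out of 1025 named genes, 15008 probes and 15208 non-control spots in all. Total RNA of 16 hypothalami, 1 fetus per array, was hybridised to a single-colour Agilent ovine array. All 16 fetuses carried implanted catheters, had blood drawn during the study, were studied at a gestational age of 124 to 128 days, where term is 147 days, and were killed 1 h after their occlusion or sham period began. The labels name 4 groups of 4 fetuses. Control fetuses had a sham period of 10 min and no estradiol. BCO fetuses had the brachiocephalic artery, the vessel that feeds the head and forelimbs, occluded for 10 min and then recovered for 50 min. Estradiol fetuses received 250 µg of estradiol per day for 5 days and then the sham period. Estradiol+BCO fetuses received the same estradiol and then the occlusion. The breed and sex of the fetuses are not given in the sources used here. The design asks how the occlusion changed transcripts in the hypothalamus and whether estradiol altered that change.

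Neuropeptides are cut from larger precursors, stored in dense-core vesicles and released to act on G protein-coupled receptors. Somatostatin from periventricular neurons reaches the pituitary through the portal vessels and restrains growth hormone release, and PACAP raises cyclic AMP in its target cells. GRP is the mammalian relative of bombesin, substance P acts through tachykinin receptors, and melanin-concentrating hormone is made by neurons of the lateral hypothalamus that act on feeding and sleep. Unlike melanin-concentrating hormone, somatostatin, substance P and PACAP are made by neurons in many brain regions. The tissue was whole hypothalamus, so fewer cells of a type and less RNA per cell cannot be told apart in any value below.

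Each gene had a pair of 60-base probes, and the sequences are shown because the agreement of a pair depends on how much of the transcript its probes share. The files place these probes by their first base in the transcript and list all 10 as unmapped on the genome, so no genome coordinates are given. The SST probes begin 1 base apart, at bases 348 and 349, and share 59 bases. Read in the somatostatin frame, they span the end of the coding region, with the stop codon in capitals:
SST A_70_P051297: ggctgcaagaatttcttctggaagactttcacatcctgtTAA
SST A_70_P051296: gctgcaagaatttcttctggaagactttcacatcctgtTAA
The GRP probes begin 20 bases apart and share 40 bases. The last 30 bases of the downstream GRP probe hold AATAAA, the usual polyadenylation signal, in capitals:
GRP A_70_P030331: agtcacAATAAAagcttaaacatattgtca
The letters AATAAA stood in 5.63% of all 15008 probes on the printed strand and in 3.7% on the other strand, and no other probe of the 5 genes held them on the printed strand. On the other strand they stood in both SST probes. The ADCYAP1 probes begin at bases 2335 and 2375 and share only these 20 bases:
ADCYAP1 shared stretch: aacccctgtgtggttaccgc
The TAC1 probes begin at bases 603 and 669 and share none, so they are separate readings of one transcript. Their first 30 bases are:
TAC1 A_70_P030231: cctccaaagaaaggaatcatttctatttct
TAC1 A_70_P030232: atcagtggtaacttctcaacaaagcacagt
The PMCH probes come from an expressed sequence tag annotated as PMCH and begin 1 base apart. That annotation could not be checked against a genome, so whether they read the PMCH transcript was not tested. Their first 30 bases are:
PMCH A_70_P002922: gttgattcagtattttgaacttcattctca
PMCH A_70_P002921: ttgattcagtattttgaacttcattctcag

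All 10 probes were well above background on 16 of 16 arrays, none was saturated, and none lacked a value. Every level below is a log2 processed signal from which that array's 75th percentile was subtracted, itself between 2047.5 and 2938.6 units. Levels are compared only within a probe, because probes differ in how they bind. The brighter probe of a gene stands for it, and the dimmer probe is given beside the main differences. Each array carried 77.27 to 86.41% of its probes well above background. The arrays sat on 2 slides with 2 fetuses of each group on each, and the slides differed at 860 of 12937 tested probes (limma with slide as a term, Benjamini-Hochberg adjusted p under 0.05). For the 10 probes the adjusted p of the slide difference was 0.298 to 0.815, and values within each slide are given beside the main differences. Differences were tested with limma on all 16 arrays, adjusted by Benjamini-Hochberg over the 12937 tested probes, with SE. An exact 2-sided permutation test of the group labels was run on each of the 10 probes in 4 comparisons, 40 tests, where the smallest p that 4 against 4 arrays allow is 0.0286. The p-values measure the spread between fetuses, whose dams are not named.

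Between the BCO and control groups 0 of the 10 probes passed the adjusted threshold, as did 0 of all 12937 (0%), and 927 of them (7.17%) had an unadjusted p under 0.05. The 4 BCO arrays lay wholly below the 4 control arrays on both SST probes and on the brighter ADCYAP1 probe. These are 3 of 10 probes, where 1.73% of all tested probes lay wholly below. The SST probes share 59 bases, so they do not count as separate readings. On the dimmer ADCYAP1 probe the groups overlapped. On 0 of the 10 probes did the BCO arrays lie wholly above, where 2.26% of all probes did. The median difference over all tested probes was 0.01.

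**Figure D1:**
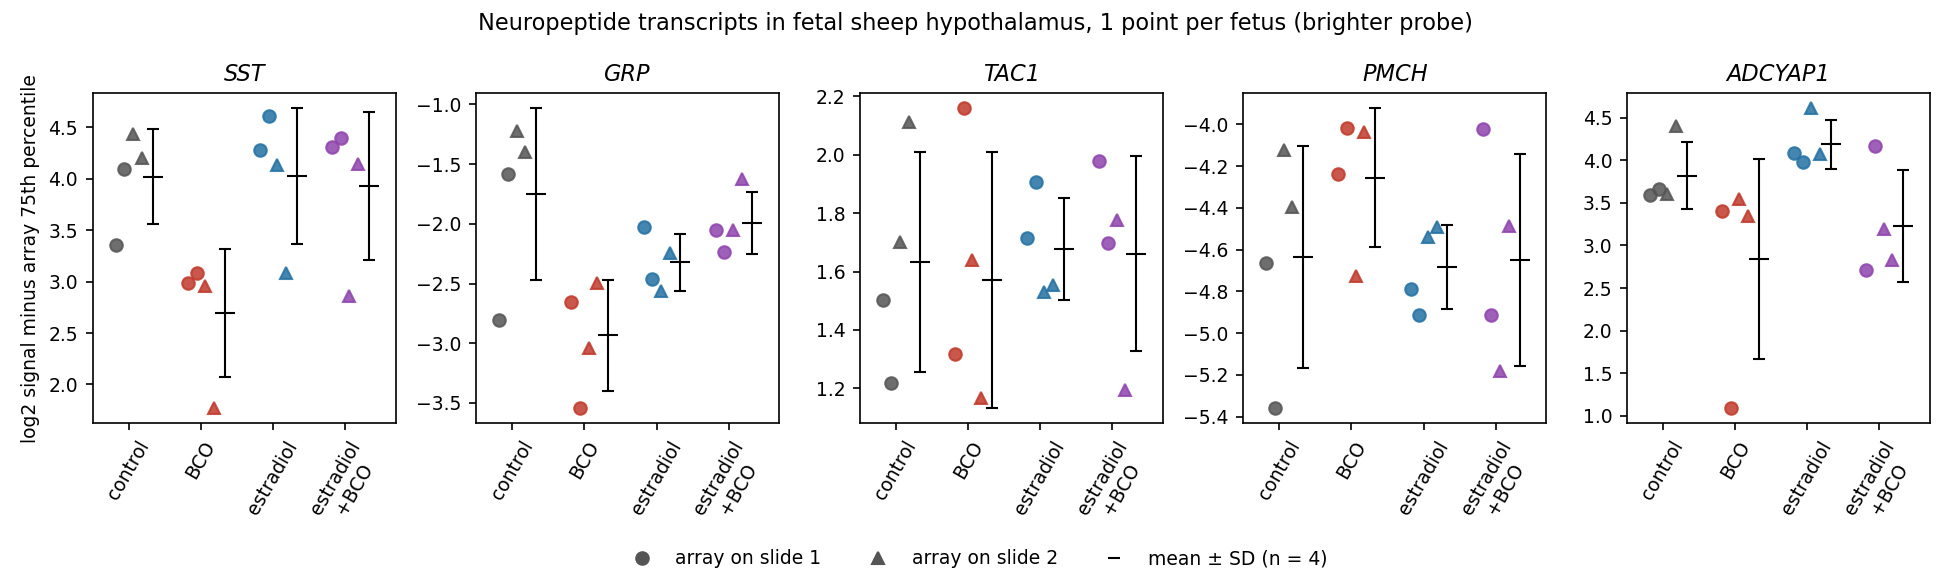
Level of each neuropeptide transcript on the brighter probe, as log2 signal relative to the array's 75th percentile (vertical axis, scaled per gene), in the 4 groups (horizontal axis), 1 point per fetus. Circles are arrays of slide 1 and triangles of slide 2, and the bars are the mean ± SD of 4 arrays. For SST the 4 BCO points lie between 1.77 and 3.08 and the 4 control points between 3.36 and 4.43.

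SST had its lowest mean in the BCO group, at 2.70 ± 0.62 (SD, n = 4), against 4.02 ± 0.46 in control, 4.02 ± 0.66 in estradiol and 3.93 ± 0.72 in estradiol+BCO. Control fetuses 1 to 4 read 3.36, 4.09, 4.43 and 4.20, and BCO fetuses 1 to 4 read 2.98, 3.08, 2.96 and 1.77. All BCO values were below all control values, and BCO fetus 4 lay furthest down. The difference was -1.32 ± 0.41, or 2.50-fold lower in BCO (limma, unadjusted p = 0.00597, Benjamini-Hochberg adjusted p = 0.493; exact permutation p = 0.0286, n = 4 per group). It did not pass the adjusted threshold. Within slide 1 it was -0.69 and within slide 2 -1.95. The dimmer probe gave -1.48 ± 0.41. Without BCO fetus 4 the difference was smallest, at -1.01.

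In the estradiol-treated fetuses the SST values of occluded and sham fetuses lay together. Estradiol fetuses 1 to 4 read 4.28, 4.61, 4.13 and 3.08, and estradiol+BCO fetuses 1 to 4 read 4.31, 4.40, 2.86 and 4.15. The groups overlapped, with 1 low fetus in each, both on slide 2. Estradiol+BCO minus estradiol was -0.10 ± 0.41 with a 95% interval of -0.97 to 0.78, and -0.09 and -0.10 within the slides. Estradiol minus control was 0.00 ± 0.41, made up of 0.72 on slide 1 and -0.71 on slide 2. In the comparison of the occluded groups, estradiol+BCO was 1.23 ± 0.41 higher than BCO, or 2.35-fold (limma, Benjamini-Hochberg adjusted p = 0.348; exact permutation p = 0.114, n = 4 per group). Of the estradiol+BCO fetuses 3 of 4 lay above every BCO fetus, and the within-slide differences were 1.32 and 1.14. The dimmer probe gave 1.35 ± 0.41. The difference between the 2 occlusion effects, tested as an interaction, was 1.23 ± 0.58 with a 95% interval of -0.01 to 2.47 (limma, unadjusted p = 0.0523, Benjamini-Hochberg adjusted p = 0.700). It was 0.60 on slide 1 and 1.85 on slide 2. On the dimmer probe the interaction was 1.41 ± 0.58, with a 95% interval of 0.18 to 2.65 that left out 0 (limma, unadjusted p = 0.0278, Benjamini-Hochberg adjusted p = 0.619). BCO against control and estradiol+BCO against BCO share the BCO arrays, so the low BCO values enter both.

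GRP also had its lowest mean in the BCO group, at -2.93 ± 0.47 (SD, n = 4), against -1.75 ± 0.72 in control, -2.32 ± 0.24 in estradiol and -1.99 ± 0.26 in estradiol+BCO. Control fetuses 1 to 4 read -2.80, -1.58, -1.22 and -1.40, and BCO fetuses 1 to 4 read -2.65, -3.54, -3.04 and -2.50. Control fetus 1 lay among the BCO values, and the other 3 controls lay above all of them. BCO minus control was -1.18 ± 0.31, or 2.27-fold lower in BCO (limma, unadjusted p = 0.00172, Benjamini-Hochberg adjusted p = 0.466; exact permutation p = 0.0857, n = 4 per group). The within-slide differences were -0.91 and -1.46, and the dimmer probe, which ends with the AATAAA stretch printed above, gave -1.26 ± 0.37. Without control fetus 1 the difference was -1.53.

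GRP was higher in the occluded fetuses that had received estradiol. Estradiol+BCO fetuses 1 to 4 read -2.05, -2.24, -2.05 and -1.63, and estradiol fetuses 1 to 4 read -2.03, -2.46, -2.56 and -2.24. All 4 estradiol+BCO values lay above all 4 BCO values on both probes. These are the 2 of the 10 probes that did so, where 1.65% of all tested probes lay wholly above and 0 of the 10 lay wholly below (2.57% of all). The GRP probes share 40 bases, so they do not count as separate readings. The difference was 0.94 ± 0.31, or 1.92-fold (limma, Benjamini-Hochberg adjusted p = 0.334; exact permutation p = 0.0286, n = 4 per group), and 0.95 and 0.93 within the slides. The dimmer probe gave 0.88 ± 0.37. As for SST, the low BCO values also enter BCO against control. Over all probes estradiol+BCO against BCO had 0 past the adjusted threshold (0%) and 1232 (9.52%) at an unadjusted p under 0.05.

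Against its own sham group, estradiol+BCO was 0.33 ± 0.31 higher for GRP, with a 95% interval of -0.33 to 0.99, and 0.10 and 0.56 within the slides. The dimmer probe gave 0.27 ± 0.37, from -0.06 on slide 1 and 0.60 on slide 2. The interaction for GRP was 1.51 ± 0.43 with a 95% interval of 0.58 to 2.44 (limma, unadjusted p = 0.00358, Benjamini-Hochberg adjusted p = 0.373), and 1.01 and 2.02 within the slides. On the dimmer probe it was 1.53 ± 0.52. Among all tested probes 1 passed in that test (0.00773%; 3 with the replicate number as a block), no member among them, and 931 (7.2%) had an unadjusted p under 0.05. Estradiol minus control was -0.57 ± 0.31 for GRP, with all 4 estradiol values between the lowest and the remaining controls. It was -0.05 on slide 1 and -1.09 on slide 2, and -0.92 without control fetus 1.

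The mean level of ADCYAP1 was lower after occlusion both without estradiol, 2.84 ± 1.17 (SD, n = 4) against 3.82 ± 0.39, and with it, 3.23 ± 0.66 against 4.19 ± 0.29. Control fetuses 1 to 4 read 3.60, 3.67, 3.61 and 4.41, and BCO fetuses 1 to 4 read 3.40, 1.09, 3.54 and 3.34. BCO fetuses 1, 3 and 4 sat just under the controls and BCO fetus 2 sat far below. BCO minus control was -0.97 ± 0.47, or 1.96-fold lower in BCO (limma, unadjusted p = 0.0565, Benjamini-Hochberg adjusted p = 0.701; exact permutation p = 0.0286, n = 4 per group). On the dimmer probe the groups overlapped: BCO fetuses read 3.11, 0.69, 3.73 and 3.22 and controls 3.18, 3.42, 3.36 and 4.12. That probe gave -0.83 ± 0.52. Without BCO fetus 2 the difference on the brighter probe was -0.39, and within the slides it was -1.39 and -0.56, with fetus 2 on slide 1.

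Estradiol fetuses 1 to 4 read 4.09, 3.98, 4.61 and 4.08 for ADCYAP1, and estradiol+BCO fetuses 1 to 4 read 2.71, 4.17, 3.19 and 2.83. Of the estradiol+BCO fetuses 3 of 4 lay below every estradiol fetus, and fetus 2 lay among them. The difference was -0.96 ± 0.47, or 1.95-fold lower after occlusion (limma, unadjusted p = 0.0594, Benjamini-Hochberg adjusted p = 0.661; exact permutation p = 0.114, n = 4 per group). It was -0.59 and -1.33 within the slides, and -0.83 ± 0.52 on the dimmer probe. In this comparison 0 of the 10 probes had groups that did not overlap, where 2.79% of all tested probes lay wholly below and 2.19% wholly above. Past the adjusted threshold were 1 of all tested probes (0.00773%; 0 with the replicate number as a block) and 0 of the 10, and 1003 (7.75%) had an unadjusted p under 0.05.

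The interaction for ADCYAP1 was 0.01 ± 0.66, with a 95% interval of -1.41 to 1.43, so differences between the 2 occlusion effects of up to 1.41 either way lie within it. It was made up of 0.79 on slide 1 and -0.77 on slide 2. The mean of both occlusion effects, a contrast added after the ADCYAP1 values were seen, was -0.97 ± 0.33 with a 95% interval of -1.68 to -0.26 (limma, unadjusted p = 0.0111, Benjamini-Hochberg adjusted p = 0.520). It was -0.99 on slide 1, -0.95 on slide 2 and -0.68 without BCO fetus 2. The dimmer probe gave -0.83 ± 0.37 with a 95% interval of -1.61 to -0.05, and -0.50 without BCO fetus 2. The interval on that probe included 0 when any of several single arrays was left out. These were control fetuses 2 and 4, estradiol fetuses 1 and 3, and estradiol+BCO fetuses 1, 3 and 4. Without control fetus 4 it was -1.55 to 0.09. On slide 1 alone the interval included 0 on both probes, at -2.34 to 0.36 on the brighter and -2.35 to 0.40 on the dimmer. The same contrast gave -0.71 ± 0.29 for SST and -0.43 ± 0.22 for GRP. It had 0 of all tested probes past the adjusted threshold (0%) and 974 (7.53%) at an unadjusted p under 0.05. Estradiol minus control was 0.37 ± 0.47 for ADCYAP1. Estradiol+BCO minus BCO was 0.38 ± 0.47, from 1.20 on slide 1 and -0.43 on slide 2.

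TAC1 values of the 4 groups lay together, with means of 1.57 to 1.68. Control fetuses 1 to 4 read 1.50, 1.22, 1.70 and 2.11, and BCO fetuses 1 to 4 read 1.32, 2.16, 1.64 and 1.17. Estradiol fetuses 1 to 4 read 1.72, 1.91, 1.53 and 1.56, and estradiol+BCO fetuses 1 to 4 read 1.98, 1.70, 1.78 and 1.20. The ranges of the 4 groups overlapped in every pair compared. BCO minus control was -0.06 ± 0.23 with a 95% interval of -0.56 to 0.43, and 0.38 and -0.50 within the slides. Estradiol+BCO minus estradiol was -0.01 ± 0.23 with a 95% interval of -0.51 to 0.48, and estradiol minus control 0.04 ± 0.23. The brighter TAC1 probe was printed in 5 copies per array, whose SD within an array was 0.02 to 0.18, well under the SD of 0.34 between fetuses of a group.

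PMCH had the lowest signal of the 5 genes and its group ranges overlapped too. Its brighter probe had a median of 102 units after background subtraction, beside a median local background of 56.5 to 65 units per array. That probe was well above background on 16 of 16 arrays. The lowest level well above background averaged -7.29 over the BCO arrays. Control fetuses 1 to 4 read -4.66, -5.36, -4.12 and -4.40, and BCO fetuses 1 to 4 read -4.24, -4.02, -4.73 and -4.04. Estradiol fetuses 1 to 4 read -4.79, -4.91, -4.54 and -4.49, and estradiol+BCO fetuses 1 to 4 read -4.02, -4.91, -5.18 and -4.49. All pairs of groups overlapped. BCO minus control was 0.38 ± 0.28 with a 95% interval of -0.21 to 0.97, from 0.88 on slide 1 and -0.12 on slide 2, and 0.34 ± 0.31 on the dimmer probe. Estradiol+BCO minus BCO was -0.40 ± 0.28 with a 95% interval of -0.99 to 0.20, and -0.17 ± 0.31 on the dimmer probe. The other comparisons gave 0.03 ± 0.28 for estradiol+BCO minus estradiol and -0.05 ± 0.28 for estradiol minus control.

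**Figure D2:**
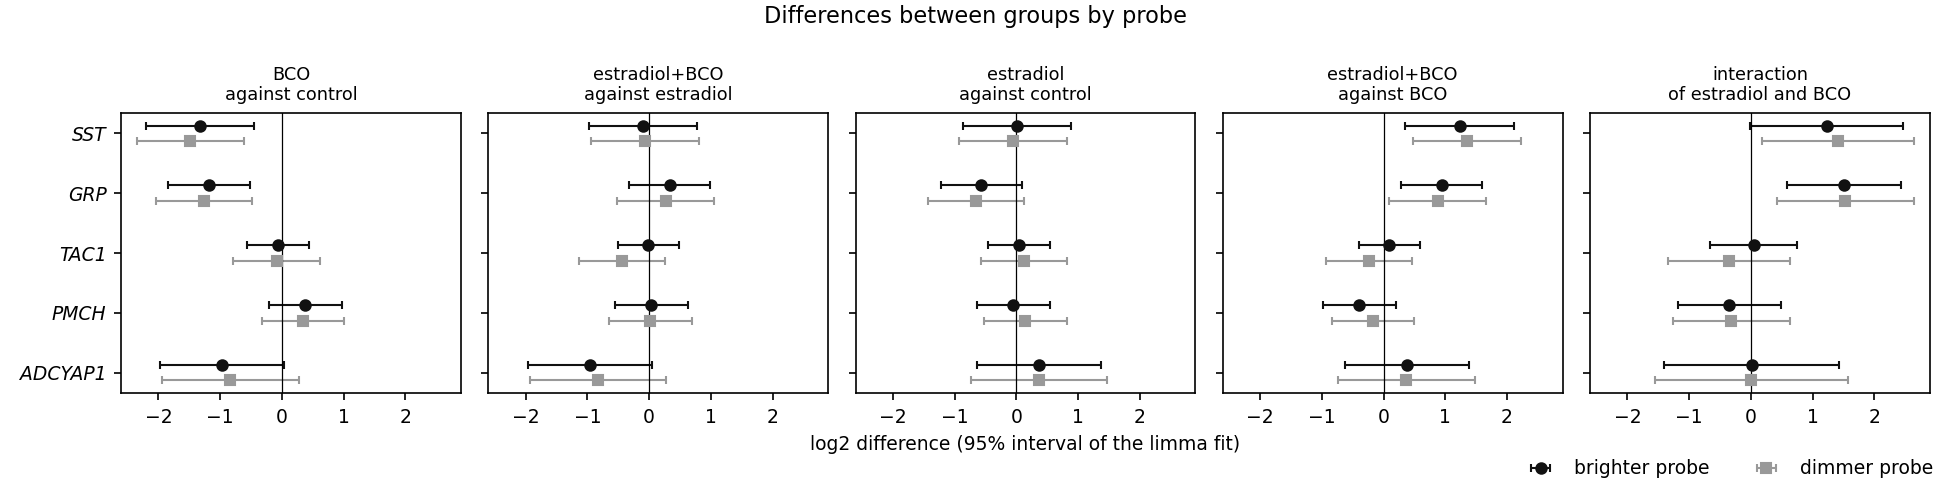
Log2 difference between groups (horizontal axis) for the 5 genes (rows) in each comparison and in the interaction (panels), with the 95% interval of the limma fit. Black circles are the brighter probe and grey squares the dimmer one, and the intervals for SST and GRP lie below 0 for BCO against control (-1.32 and -1.18 on the brighter probes) and above 0 for estradiol+BCO against BCO (1.23 and 0.94).

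Estradiol without occlusion gave no difference past the threshold in the 5 genes. Of the 10 probes 0 passed the adjusted threshold and 0 of all 12937 did (0%), with 425 (3.29%) at an unadjusted p under 0.05. None of the 10 probes had groups that did not overlap, where 1.55% of all tested probes lay wholly below and 1.63% wholly above. Fetuses of one group differed more in these genes than in most. The pooled SD within groups was 0.72 for ADCYAP1, 0.62 for SST, 0.46 for GRP, 0.41 for PMCH and 0.34 for TAC1, and the median over all tested probes was 0.25. Of all tested probes 91.8% had a smaller SD than ADCYAP1, 88.6% than SST and 67.5% than TAC1.

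The probes of a pair followed each other closely on most arrays. The SD over 16 arrays of the difference between the probes was 0.14 for GRP, 0.16 for ADCYAP1, 0.18 for SST, 0.27 for PMCH and 0.42 for TAC1. For TAC1 that value came from estradiol+BCO fetus 3, where the brighter probe read 1.78 and the dimmer 0.06. Without that array it was 0.10, although these probes share no base. On account of that array the dimmer TAC1 probe gave -0.44 ± 0.33 for estradiol+BCO minus estradiol, against -0.01 on the brighter. The SST probes, which share 59 of 60 bases, differed most on BCO fetus 3, by 0.74. The PMCH probes, which share as many, differed most on estradiol+BCO fetus 3, by -0.69.

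**Figure D3:**
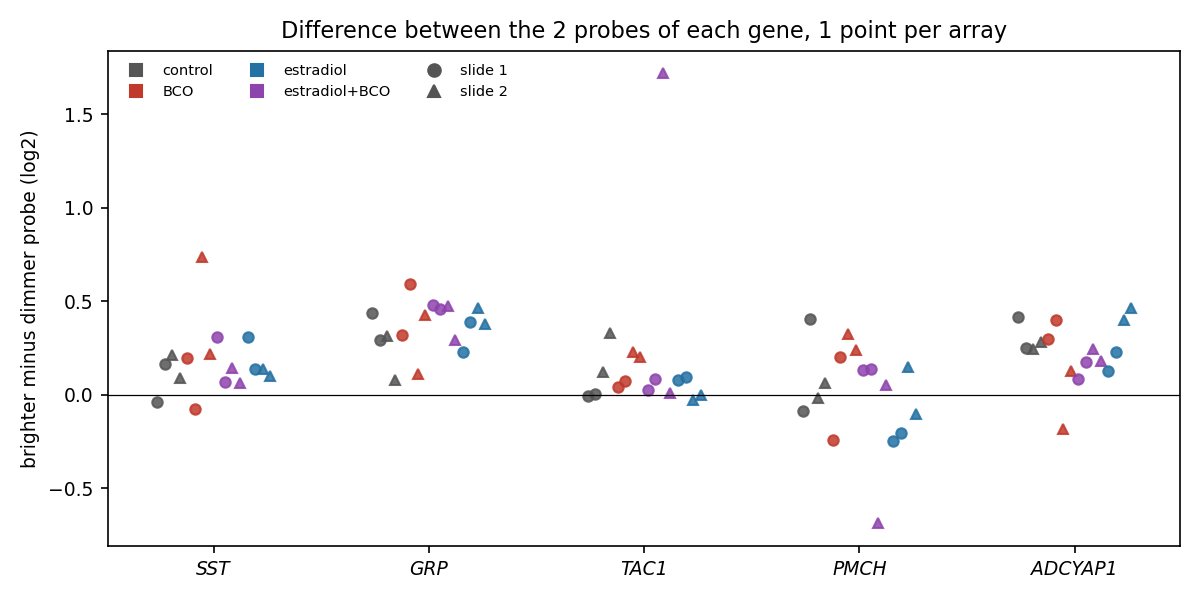
Brighter minus dimmer probe (vertical axis, log2) for each gene, 1 point per array, coloured by group, with circles for slide 1 and triangles for slide 2. Most points lie within 0.5 of 0, and the TAC1 point of estradiol+BCO fetus 3 lies at 1.72.

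The levels of the 5 genes were compared with each other across fetuses in 10 pairs. The closest was SST with GRP, with Pearson r = 0.513 (permutation p = 0.0423, Benjamini-Hochberg adjusted 0.393) and Spearman rho = 0.538 (permutation p = 0.0337, adjusted 0.337) over 16 arrays. It was 0.666 without the 2 fetuses farthest from the median of SST, and 0.692 and 0.628 within the slides. With group means removed r was 0.087. No pair passed after adjustment, by r or by rho.

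Next, the named genes whose signal followed each peptide most closely across the 16 arrays were ranked among 902 by Pearson r, given as a description of arrays that share their groups and slides. SST was followed by GAL, the neuropeptide galanin (r = 0.900), by GHRH, the growth hormone-releasing hormone (0.893), and by ISL1, a transcription factor of arcuate neurons (0.847). With group means removed these values were 0.833, 0.819 and 0.861, so SST and these genes also varied together among fetuses of the same group. On slide 1 and slide 2 taken alone r was 0.888 and 0.907 for GAL, 0.957 and 0.860 for GHRH, and 0.537 and 0.945 for ISL1. BCO fetus 4, lowest for SST at 1.77, was also lowest for GAL at -4.09 and for ISL1 at -4.62. Estradiol fetus 4 and estradiol+BCO fetus 3, the low fetuses of their groups for SST, read -2.60 and -2.31 for GAL, the lowest of their groups. GHRH was well above background on 0 of 4 BCO arrays, so its r rests partly on values that are only a bound. GAL was -2.82 ± 0.56 in BCO minus control (limma, unadjusted p = 0.000175, Benjamini-Hochberg adjusted p = 0.466).

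ADCYAP1 was followed by NEUROD1, a neuronal transcription factor (r = 0.859), by NKX2.2, a homeodomain factor of the ventral neural tube (0.836), and by CRHBP, the binding protein of corticotropin-releasing hormone (0.813). BCO fetus 2, lowest for ADCYAP1 at 1.09, was also the lowest of all 16 for NEUROD1, at -4.67 against -2.89 to -2.17 elsewhere. Without that fetus r was 0.585 for NEUROD1, 0.801 for NKX2.2 and 0.717 for CRHBP. Leaving out that 1 array lowered r most for NEUROD1. CRHBP was -1.01 ± 0.27 in BCO minus control (limma, unadjusted p = 0.00233, Benjamini-Hochberg adjusted p = 0.466).

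GRP was followed less closely, by NPVF, the precursor of the RF-amide peptide also called gonadotropin-inhibitory hormone (r = 0.676), by CYP24, the vitamin D 24-hydroxylase (0.676), and by the expressed sequence LOC100191065 (0.675). With group means removed the r of NPVF was 0.372. CYP24 was well above background on 5 of 16 arrays, none of them BCO, so its r and its place in the ranking rest mostly on values that are only a bound. Within the slides r was 0.771 and 0.820 for NPVF and 0.412 and 0.822 for LOC100191065. PMCH was followed by the cell cycle genes CDK1 (0.726), CCNA2 (0.715) and ASPM (0.696). Within slide 1 these were 0.948, 0.920 and 0.708, and within slide 2 0.224, 0.301 and 0.686. TAC1 was followed by the mitochondrial carrier SLC25A10 (0.643), the tumour necrosis factor receptor TNFRSF1A (0.640) and the receptor tyrosine kinase MET (0.612).

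**Figure D4:**
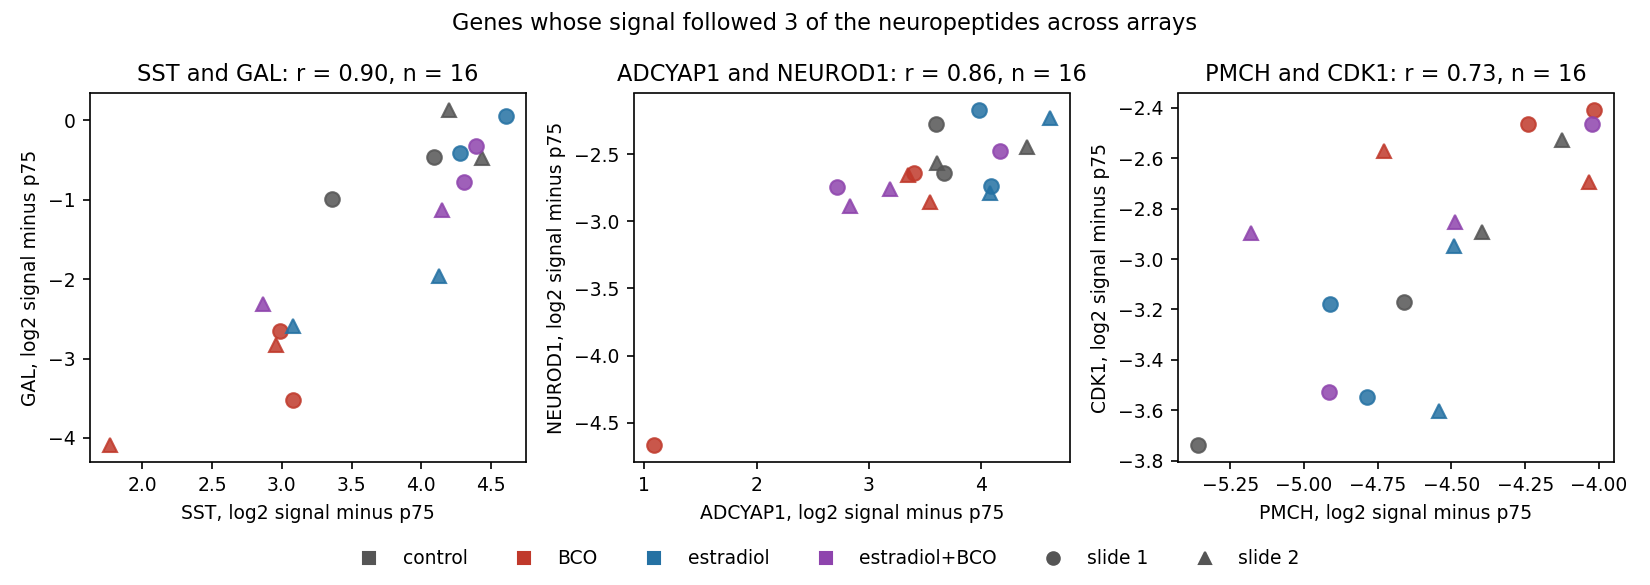
Levels of GAL against SST, NEUROD1 against ADCYAP1 and CDK1 against PMCH (each axis log2 signal relative to the array's 75th percentile), 1 point per array, coloured by group, with circles for slide 1 and triangles for slide 2. Pearson r over 16 arrays was 0.900, 0.859 and 0.726, and the NEUROD1 point at the lower left is BCO fetus 2.

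Of 16 listed receptors of these or related peptides 5 had a named probe. They were the somatostatin receptors SSTR1, SSTR2 and SSTR5, the orphan bombesin receptor BRS3, and ADCYAP1R1, the receptor that prefers PACAP. GRPR, NMBR, TACR1, TACR2, TACR3, MCHR1 and MCHR2 had none. Receptors of GRP, substance P and melanin-concentrating hormone were therefore not read by name. In BCO minus control 4 of the 5 were lower and 1 higher, 0 passed the adjusted threshold, and the median was -0.16. BRS3 stood lowest. Control fetuses 1 to 4 read -3.02, -2.78, -3.10 and -3.21, and BCO fetuses 1 to 4 read -4.33, -3.89, -3.84 and -4.87. All BCO values lay below all controls, and the difference was -1.21 ± 0.35 (limma, unadjusted p = 0.00393, Benjamini-Hochberg adjusted p = 0.493). The other BRS3 probe gave -1.49.

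With estradiol, BRS3 read -3.34, -2.59, -4.04 and -3.86 in the sham fetuses and -3.32, -3.48, -4.44 and -2.84 in the occluded ones, which overlapped. The difference there was -0.07 ± 0.35, and the interaction 1.14 ± 0.50 (limma, unadjusted p = 0.0373, Benjamini-Hochberg adjusted p = 0.653). Among the other receptors BCO minus control was -0.12 ± 0.15 for SSTR1, -0.22 ± 0.22 for SSTR2, 0.04 ± 0.26 for SSTR5 and -0.16 ± 0.19 for ADCYAP1R1. In estradiol minus control 4 of 5 receptors were lower and 1 higher (median -0.26). SSTR2 differed there by -0.47 ± 0.22 (limma, unadjusted p = 0.0542, Benjamini-Hochberg adjusted p = 0.9998). In estradiol+BCO minus estradiol 2 of 5 were higher (median -0.07), with ADCYAP1R1 at 0.28 ± 0.19 on 1 probe and -0.04 on the other. In estradiol+BCO minus BCO 2 of 5 were higher (median -0.08).

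Of 13 listed genes of peptide processing, storage and breakdown 1 had a named probe, CPE, the carboxypeptidase that trims peptide precursors. It was 0.07 ± 0.12 in BCO minus control and -0.26 ± 0.12 in estradiol+BCO minus estradiol (limma, unadjusted p = 0.0409, Benjamini-Hochberg adjusted p = 0.619). Of 15 listed genes of second messengers and activity downstream of the receptors 6 had a named probe. In BCO minus control 3 were higher and 3 lower on their brightest probes (median 0.12). The immediate early genes FOS and EGR1 were lower there, at -0.02 and -0.11. Their other probes gave 0.17, 0.20 and 0.04 for FOS and 0.60 for EGR1. CREM, the cyclic AMP-responsive factor, was 0.25 on its brightest probe and 0.16 and -0.05 on others. The count of higher and lower genes therefore depends on the probe chosen. In estradiol+BCO minus estradiol all 6 were higher and 0 passed the adjusted threshold (median 0.29). Lowest in unadjusted p there was CREM, at 0.35 ± 0.14. FOS was 1.10 ± 0.32 in estradiol+BCO minus BCO (limma, unadjusted p = 0.0043, Benjamini-Hochberg adjusted p = 0.292).

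Of 25 other hypothalamic neuropeptides listed 10 had a named probe, and 0 of the 10 passed the adjusted threshold in any comparison. In BCO minus control 9 had a lower mean, 8 of them with an unadjusted p under 0.05 (limma), where 7.17% of all tested probes had such a p. NPPC, the C-type natriuretic peptide precursor, had a higher mean, at 0.59 ± 0.33. The list was chosen with earlier results of these data known, so these counts are no independent support. The median of the 10 genes was -2.50, midway between OXT, the oxytocin precursor, at -2.70 and GNRH1, the gonadotropin-releasing hormone precursor, at -2.29. GNRH1 cleared background on 2 of 4 BCO arrays, so its difference, and with it the median, rests partly on values that are only a bound. GHRH cleared it on 0 of 4 BCO arrays. With its BCO values set to the lowest level well above background, BCO minus control was -5.04, or 32.9-fold lower in BCO. That value bounds only the difference between the observed group means, since the BCO signal may lie lower. It sets no limit for single fetuses, and control fetuses ranged from -4.21 to -1.21. Setting the GHRH difference to -5.04 leaves the median at -2.50, since GHRH is not one of the middle pair. In estradiol+BCO minus BCO 9 of 10 were higher, and the median of 1.70 lay between AGRP, the agouti-related peptide, at 1.55 and GNRH1 at 1.84. That comparison shares its BCO arrays with BCO minus control, so low BCO values enter both counts. In estradiol+BCO minus estradiol 4 were higher and 6 lower (median -0.50), with TAC3, the neurokinin B precursor, at -1.09 ± 0.42 (limma, unadjusted p = 0.0195, Benjamini-Hochberg adjusted p = 0.572). OXT was -2.70 ± 0.90 in BCO minus control and 4.33 ± 0.90 in estradiol+BCO minus BCO. The differences of SST and GRP, -1.32 and -1.18 and then 1.23 and 0.94, were smaller than these medians.

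No measured marker of place or cell type passed the adjusted threshold in any comparison (limma, Benjamini-Hochberg). Of 16 listed markers of hypothalamic nuclei 3 had a named probe, and SIM1, OTP and NKX2-1 had none. Their summed level, in multiples of the array 75th percentile, was 0.255 to 0.411 in control, 0.0696 to 0.331 in BCO, 0.146 to 0.457 in estradiol and 0.124 to 0.294 in estradiol+BCO. ISL1 made up most of this sum, with control means of -1.78 for ISL1, -5.29 for ARNT2 and -7.17 for NR5A1. The sum therefore mostly restates ISL1. ISL1 was -1.24 ± 0.53 in BCO minus control and ARNT2 -0.05 ± 0.14. NR5A1, a marker of the ventromedial nucleus, was well above background on 2 of 4 control arrays and on 0 of 4 BCO arrays. NEUROD1, the 1 of 9 listed thalamic and telencephalic markers with a named probe, was 0.161 to 0.206 in control, 0.0394 to 0.161 in BCO, 0.145 to 0.222 in estradiol and 0.135 to 0.179 in estradiol+BCO.

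Of 11 listed pituitary genes 5 were tested, and the value of BCO minus control on their brightest probes was below 0 for each. For LHB it was -0.11 on that probe and 0.26 on the other, and FSHB, at -0.66 ± 1.25, was well above background on 2 of 4 control and 2 of 4 BCO arrays, so neither has a settled direction. The 5 genes had a summed level of 3.87 to 7.57 in control, 3.71 to 5.95 in BCO, 4.52 to 14.6 in estradiol and 3.89 to 6.58 in estradiol+BCO. PRL, the prolactin gene, was lowest in unadjusted p among them, at -2.26 ± 1.04. POU1F1 was not well above background on enough arrays to be tested. TTR, the choroid plexus transcript, ranged from 1.46 to 12.8 in control and from 0.301 to 14.4 in BCO. Of the 4 measured astrocyte markers 2 were higher and 2 lower, of 2 microglial markers both were lower, of 2 endothelial markers both were higher, and of 4 fibroblast markers 1 was higher and 3 were lower. HBB, the 1 measured erythroid marker, was 0.62 ± 0.82 in BCO minus control. No named probe matched any of the 12 neuronal or 8 oligodendrocyte markers listed, with 13352 of 15008 probes unnamed. The part of these markers in the SST, GRP and ADCYAP1 differences was not tested.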

How the data were processed

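The authors labelled 500 ng of hypothalamic RNA per fetus (RNA integrity numbers 7.4 to 8.4, per the labels' protocols) with Cy3. Per the file headers, scans of array design 019921 were quantified by Agilent's Feature Extraction software, version 10.1.1.1, under its protocol GE1-v5_10_Apr08. Deposited scanner files give the processed signal as intensity in arbitrary units, background-subtracted by that software. The deposited value table holds log2 values that differ from the log2 processed signal by 1 constant per array (its spread over the features of an array rounds to 0.0), within 0.0116 of the array's median over all features, and it was used as an alternative.

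Spots flagged as outliers (2 to 36 per array) were left out, copies of a probe averaged on the log2 scale, and the array's 75th percentile subtracted. Probes well above background on at least 4 of 16 arrays were tested (12937 of 15008). limma 3.58.1 in R 4.3.3 fitted 4 group means to all arrays. It was tested on simulated data. Exact permutation tests used scipy 1.17.1, and permutation tests of correlations 100000 resamples.

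The named genes are every probe of the 5 genes, the 3 named genes most alike to each by Pearson r, and list members (receptors, and the gene of lowest p in a list). A gene with several probes is represented by its brightest. FOS, OXT, BRS3 and CREM fall under this rule, and other list genes were named after their values were seen. Of 15008 probes 13352 remained unnamed, and genes not named on the array are not analysed here. Names were matched through a sheep gene table. The members and lists were chosen with earlier results of these data known. Alternatives were 12 other settings and leaving out each of 16 arrays. The number of arrays limits the precision, and no counting interval applies to intensities.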

Additional observations from a re-analysis of the deposited data

Results flagged for a closer look

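In 4 of 40 groups of 4 arrays (10 probes in 4 groups) 1 array stood so far from the other 3 that the gap took up most of the group's range. Chance alone would flag about 1 in 20 groups. For SST, BCO fetus 4 read 1.77 where the other 3 read 2.96 to 3.08, and estradiol+BCO fetus 3 read 2.86 where the others read 4.15 to 4.40. For ADCYAP1, control fetus 4 read 4.41 where the others read 3.60 to 3.67, and BCO fetus 2 read 1.09 where the others read 3.34 to 3.54. All 4 were on the brighter probe of the gene. The dimmer probe of the same gene pointed the same way on these arrays without passing the same limit.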

How the results depend on the processing

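No result on the 5 genes crossed the adjusted threshold under any alternative: of 480 values from leaving out 1 array 441 kept their direction and 39 turned sign, and of 340 from other settings 319 kept it and 21 turned. SST and GRP in BCO against control, in estradiol+BCO against BCO and in the interaction, and ADCYAP1 in both occlusion comparisons, kept their sign throughout. The values that turned were near 0 or differed between the slides. Slide 1 alone turned TAC1 to 0.38 in BCO against control, 0.026 in estradiol+BCO against estradiol, -0.35 in the interaction and 0.20 in BCO averaged over estradiol, and PMCH to 0.16 in estradiol against control. Slide 2 alone turned PMCH to -0.12 in BCO against control, -0.32 in estradiol+BCO against estradiol and -0.22 in BCO averaged over estradiol, SST to -0.71 and TAC1 to -0.37 in estradiol against control, and ADCYAP1 to -0.43 in estradiol+BCO against BCO and -0.77 in the interaction. Normexp turned PMCH to -0.13 in estradiol+BCO against estradiol and 0.081 in estradiol against control, and SST to -0.0054 there. The dimmer probe gave -0.059 for SST and 0.15 for PMCH in estradiol against control, -0.23 for TAC1 in estradiol+BCO against BCO and -0.35 in the interaction. Median centring gave 0.0055 for TAC1 in estradiol+BCO against estradiol, and quantile normalization -0.049 for ADCYAP1 in the interaction. Leaving out 1 array, the range was -0.20 to 0.61 for ADCYAP1 in estradiol+BCO against BCO and -0.57 to 0.25 in the interaction. For PMCH it was -0.29 to 0.12 in estradiol against control and -0.18 to 0.21 in estradiol+BCO against estradiol. For SST it was -0.22 to 0.32 in estradiol against control and -0.41 to 0.26 in estradiol+BCO against estradiol. For TAC1 it was -0.26 to 0.10 in BCO against control, -0.14 to 0.041 in BCO averaged over estradiol, -0.10 to 0.20 in estradiol against control, -0.043 to 0.29 in estradiol+BCO against BCO, -0.12 to 0.14 in estradiol+BCO against estradiol and -0.11 to 0.24 in the interaction. Among all probes BCO against control had 14 past the threshold on slide 2 alone, 3 with only the groups compared, and 0 to 6 leaving out 1 array, with 6 without BCO fetus 2. Estradiol+BCO against BCO had 14 on slide 2 alone and 0 to 5 leaving out 1 array, and estradiol against control had 1 on slide 2 alone. Estradiol+BCO against estradiol had 0 with median centring, either slide alone, the value table or only the groups compared, and 0 to 1 leaving out 1 array. The interaction had 0 with quantile normalization, median centring, no filter, either slide alone or the value table, 3 with slide as a block, and 0 to 3 leaving out 1 array. Replicate numbers were not taken to pair the samples: same-numbered arrays had correlations of -0.02 to 0.27 (median 0.12) with 20 of 24 over 0.1, where arrays of the same slide and another number had a median of 0.14 with 17 of 24 over 0.1, and 3 of 16 arrays correlated best with their own number. In estradiol+BCO and estradiol all 4 same-numbered pairs were over 0.1, at 0.10 to 0.12. The same held for all 4 pairs of BCO and estradiol, at 0.11 to 0.23. The replicate block left SST in BCO against control at -1.32 (limma, adjusted p = 0.464), gave 0 probes for estradiol+BCO against estradiol and 3 for the interaction, and brought no member past the threshold. The cause of these changes was not tested.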
